A study of Mus musculus with 32 samples.

Results

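Genomic imprinting leaves a gene active from only the copy inherited from the mother or only the copy inherited from the father. Many imprinted genes act on fetal and muscle growth, and they lie in clusters whose members share enhancers and a methylated control region. The 10 genes described here were chosen by name as imprinted growth genes, out of 55487 gene identifiers in the count table: H19, Igf2, Igf2r, Grb10, Dlk1, Meg3, Rian, Mirg, Cdkn1c and Peg3. H19 and Igf2 form one cluster, in which the mother's copy makes the H19 noncoding RNA and the father's copy makes insulin-like growth factor 2. Dlk1, Meg3, Rian and Mirg lie in another, where the father's copy makes the Dlk1 protein and the mother's copy makes a long run of noncoding RNA that carries microRNAs and small nucleolar RNAs. In muscle, H19 is known as an RNA that stays high after birth, when most other tissues shut it off. The counts do not separate the alleles, so nothing below bears on which parental copy was read. Gene positions are on GRCm38 (mm10), from GENCODE M21.

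The gastrocnemius, a calf muscle, of young male mice gave 32 mRNA libraries in 6 groups. Mice with a complete spinal cord injury (SCI) that received boldine, a plant alkaloid known to block connexin hemichannels, gave 6 libraries at 7 days after surgery and 6 at 28 days. Mice with SCI that received vehicle gave 6 libraries at each day. Mice with sham surgery, which also received vehicle, gave 4 libraries at each day. The sources used here do not give the strain, the age in weeks, the boldine dose or any pooling of animals. The labels number the replicates without saying more of their origin, so a p-value compares a difference with the spread of libraries only. Markers of mature fibres summed to 59274 CPM (counts scaled to library size) or more in every library, as the labelled tissue would have.

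Libraries held 9935424 to 14132960 counts. At 7 days the scaling factors of the trimmed mean of M-values (TMM) were 1.12 to 1.36 in SCI boldine and 1.04 to 1.31 in SCI vehicle libraries, against 0.867 to 0.95 in sham libraries. Scaled by library totals alone, the median log2 fold change of all genes at 7 days moved to 0.37 for SCI vehicle over sham and 0.44 for SCI boldine over sham. A change given below is therefore a change relative to most other genes. A set of 8 libraries of 28 days (the 4 sham libraries and SCI vehicle libraries 1 to 4) stood apart with Hipk2, a nuclear kinase, at 4.97 to 21.8 CPM, against 47 to 119 CPM in the other 24 libraries. No label names a batch that parts them. All SCI boldine libraries and all 7-day libraries lay in the high set, so at 28 days only SCI vehicle libraries 5 and 6 share a set with the boldine libraries, and no sham library does. Values that take the sets into account are given for 28-day results below. SCI boldine 28-day library 6 carries a description code from the run of codes of the vehicle group, while its title and treatment label say boldine.

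The H19 transcript is also the precursor of miR-675, and Meg3 that of miR-770. Their mature sequences are shown because both precursors lie in exons of members whose levels changed. The counts measured the long host RNA and not these small RNAs, which mRNA libraries hardly hold. Sequences are from RefSeq (GRCm38.p6), 5′ to 3′, with the seed (bases 2 to 8) in capitals.
miR-675-5p, chr7:142577112-142577133, minus strand: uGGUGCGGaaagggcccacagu
miR-675-3p, chr7:142577078-142577099, minus strand: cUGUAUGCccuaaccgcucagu
miR-770-5p, chr12:109563710-109563731, plus strand: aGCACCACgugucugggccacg
miR-770-3p, chr12:109563744-109563765, plus strand: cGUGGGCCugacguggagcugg
None of the 4 seeds was shared. The Mir675 and Mir770 entries of the count table held 0 counts in all 32 libraries.

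The windows around the starts of Meg3 and Rian are shown because these RNAs of one cluster moved together. Each runs from 250 bases before to 50 bases after the start, with each CG dinucleotide, the site of DNA methylation, in capitals.
Meg3, chr12:109540746-109541045, plus strand: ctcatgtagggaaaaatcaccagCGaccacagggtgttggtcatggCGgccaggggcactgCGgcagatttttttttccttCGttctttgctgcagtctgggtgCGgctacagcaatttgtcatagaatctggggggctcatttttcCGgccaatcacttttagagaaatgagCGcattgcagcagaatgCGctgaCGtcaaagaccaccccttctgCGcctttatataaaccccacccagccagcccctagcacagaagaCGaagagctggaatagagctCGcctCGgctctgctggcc
Rian, chr12:109603695-109603994, plus strand: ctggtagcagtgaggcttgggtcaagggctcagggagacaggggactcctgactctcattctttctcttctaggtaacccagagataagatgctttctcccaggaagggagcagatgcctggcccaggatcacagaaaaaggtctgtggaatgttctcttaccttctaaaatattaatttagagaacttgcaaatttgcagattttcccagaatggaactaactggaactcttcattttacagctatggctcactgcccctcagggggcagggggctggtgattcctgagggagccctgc
The table holds 2 starts for Meg3. The window shown, at the gene's first start, held 13 CG, that of the other start, at chr12:109545148-109545447, held 1, and the Rian window held 0, while the median over 32851 windows of this length was 7, and 94.6% of them held a CG. Methylation was not measured here.

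The members spanned a wide range of levels per kilobase of exon. In sham muscle at 28 days, H19 led with 140 ± 33.4 CPM per kilobase (SD, n = 4). Cdkn1c followed at 12.7 ± 1.2, Igf2r at 8.66 ± 0.394, Grb10 at 3.12 ± 0.227 and Meg3 at 1.27 ± 0.213 CPM per kilobase. Peg3 stood at 0.788 ± 0.13 and Rian at 0.465 ± 0.108 CPM per kilobase. Igf2 at 0.153 ± 0.0921 and Dlk1 at 0.148 ± 0.0332 CPM per kilobase did not differ beyond their spread, and Mirg was lowest at 0.0453 ± 0.0328. H19 thus stood far above its cluster partner Igf2 in adult muscle.

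Injury moved several members, and the members called differed between the days. At 7 days, 3 of the 9 members that passed the count filter were called higher in SCI vehicle than in sham muscle (Igf2r, H19 and Peg3) and 3 lower (Meg3, Rian and Grb10), at an adjusted p under 0.05. In that comparison 21.5% of the 14955 genes tested were called higher and 23.1% lower, so a call was common among all genes. At 28 days, Peg3 and Cdkn1c were called higher and H19 lower, against 4.05% of all genes called higher and 4.88% lower. The median log2 fold change of the 9 members was -0.03 at 7 days and -0.16 at 28 days, against -0.02 and 0.00 over all genes tested. H19 was the member called in opposite directions at the 2 days. In bulk muscle, fewer cells of a type and less RNA per cell cannot be told apart. All adjusted p-values are from edgeR's quasi-likelihood test with Benjamini-Hochberg adjustment over all genes tested, and each log2 fold change is followed by its approximate standard error.

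**Figure D1:**
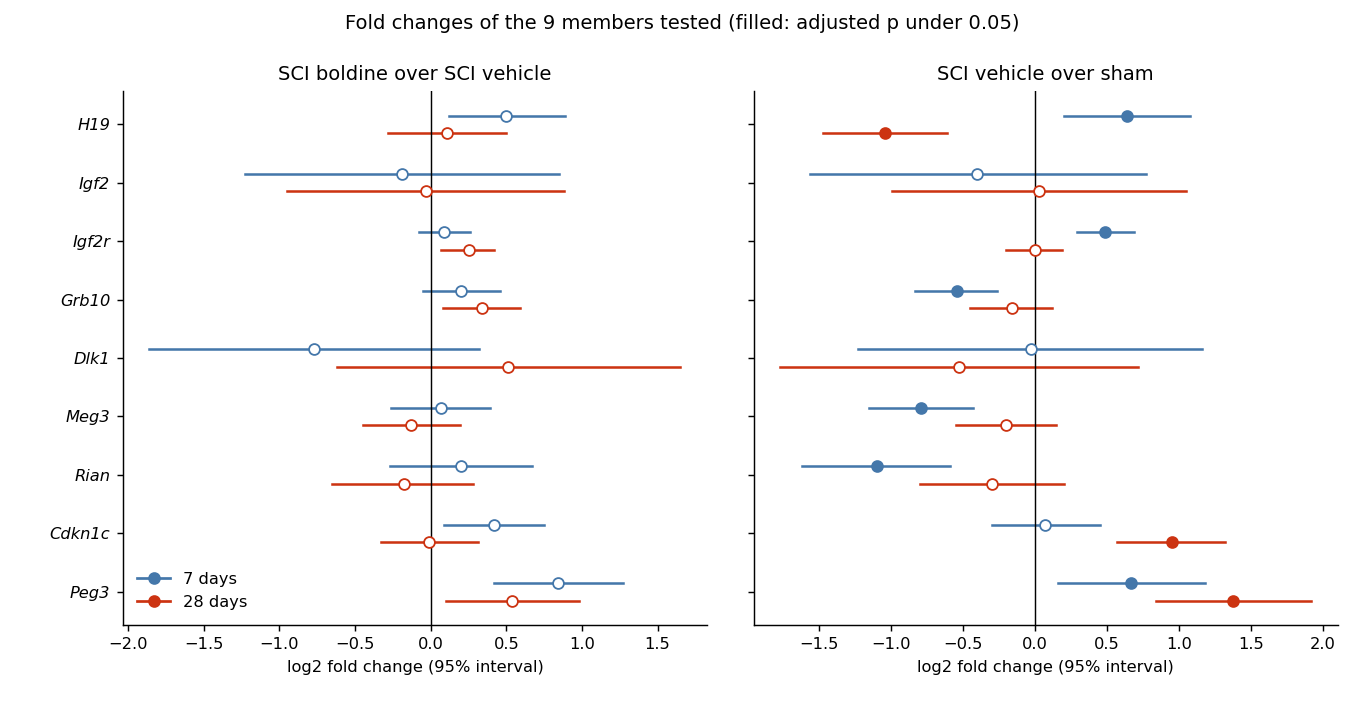
Log2 fold changes (horizontal axis, with 95% intervals) of the 9 members tested, for SCI boldine over SCI vehicle (left) and SCI vehicle over sham (right), at 7 days (blue) and 28 days (red); filled points passed an adjusted p of 0.05. H19 stands at 0.64 at 7 days and -1.04 at 28 days for SCI vehicle over sham, and no point on the left is filled.

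H19 (chromosome 7, 142575529 to 142578143, minus strand) is a noncoding RNA of the mother's copy that is associated with restrained growth. At 7 days it had a lowest, median and highest level of 348, 410 and 791 CPM in SCI vehicle muscle, against 311, 168, 308 and 406 CPM in the 4 sham muscles. Of the 6 SCI vehicle libraries, 4 lay above the highest sham library, 1 of them far above it, and the groups overlapped. The log2 fold change was 0.64 ± 0.21 (adjusted p = 0.015), with 6 of 6 SCI vehicle libraries above the sham mean. The call was lost without SCI vehicle library 2, the one at 791 CPM (0.44, adjusted p = 0.065), without sham library 2, the one at 168 CPM (0.44, adjusted p = 0.096), and with only the groups compared in the fit (0.65, adjusted p = 0.056).

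At 28 days H19 went the other way. It had 129, 173 and 189 CPM as lowest, median and highest in SCI vehicle muscle, against 351, 426, 369 and 231 CPM in sham muscle. Every SCI vehicle library lay below every sham library, and the log2 fold change was -1.04 ± 0.21 (adjusted p = 0.0011). It was -1.10 (adjusted p = 0.0045) with only the SCI vehicle libraries in the same Hipk2 set as the sham libraries. The injury effect at 28 days minus that at 7 days was -1.68 ± 0.30 (adjusted p = 1.2e-04), in a comparison where 11.6% of all genes were called higher and 12.3% lower. In sham muscle H19 at 28 days against 7 days gave 0.21 ± 0.23 (adjusted p = 0.76, interval -0.27 to 0.68).

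**Figure D2:**
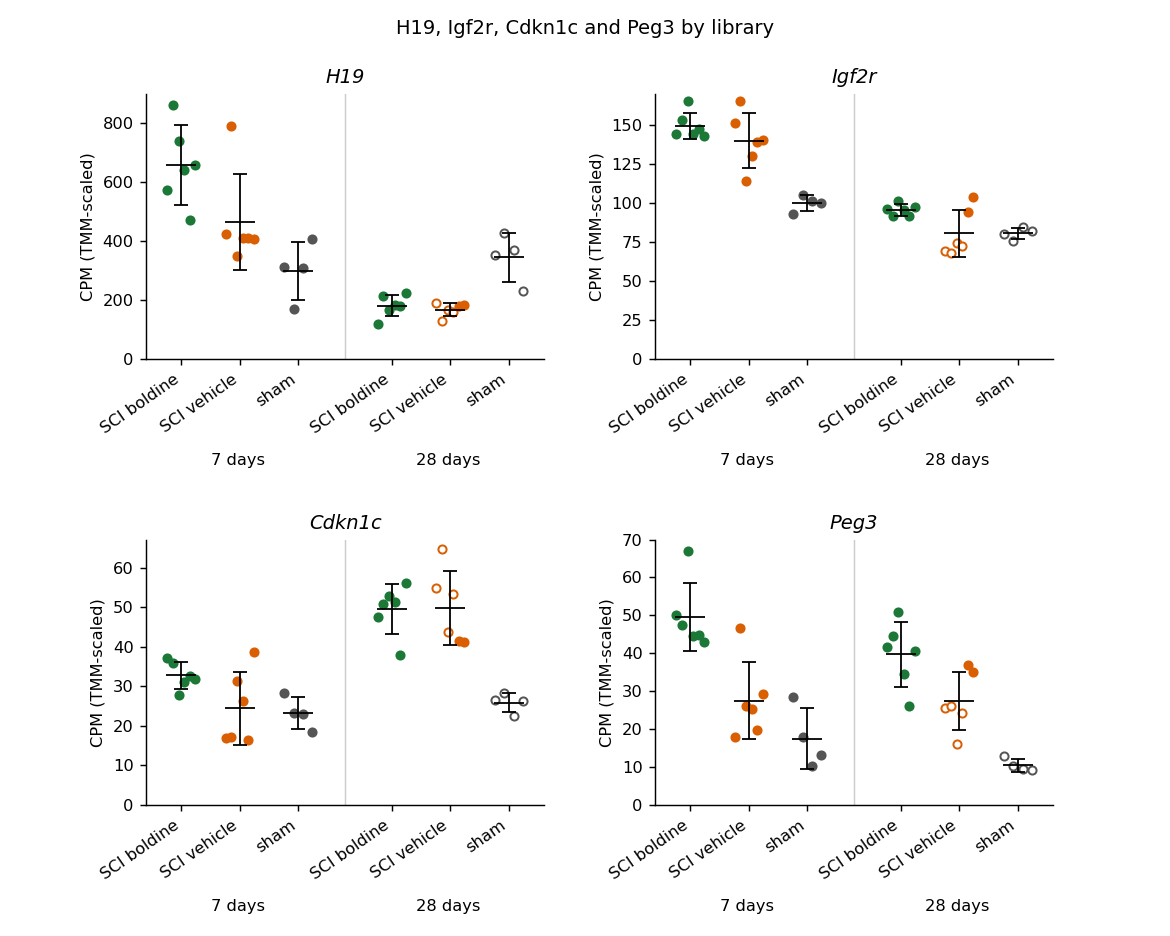
TMM-scaled CPM (vertical axes) of H19, Igf2r, Cdkn1c and Peg3 in each library, by group and day, with the mean and SD as bars; open points are the 8 libraries of the low Hipk2 set. H19 in SCI vehicle muscle is between 348 and 791 CPM at 7 days and between 129 and 189 CPM at 28 days, while sham muscle stays between 168 and 426 CPM.

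With boldine, H19 at 7 days stood at 470, 650 and 862 CPM as lowest, median and highest, against 348, 410 and 791 CPM with vehicle. All 6 SCI boldine libraries lay above the vehicle mean, but the groups overlapped and the difference did not pass the test (0.50 ± 0.19, adjusted p = 0.35, interval 0.12 to 0.89). Without SCI vehicle library 2 it was 0.72 and passed, at an adjusted p that rounds to 0.05. Against sham, the SCI boldine libraries did not overlap and H19 was higher by 1.14 ± 0.22 (adjusted p = 6.2e-05). At 28 days H19 with boldine was 120, 182 and 222 CPM, near the vehicle level (0.11 ± 0.19, adjusted p = 0.93, interval -0.28 to 0.50, and 0.00 within the same Hipk2 set) and lower than in sham muscle (-0.93 ± 0.21, adjusted p = 0.0018).

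Nctc1 is a noncoding RNA read from the region of the muscle enhancer of the H19 cluster (chromosome 7, 142544609 to 142558596). It had 45155 counts over the 32 libraries, while Gm33148, between H19 and Igf2, had 361 and did not pass the test at 7 days (0.83 ± 0.55, adjusted p = 0.23). Nctc1 at 7 days stood at 31, 47.1 and 126 CPM as lowest, median and highest in SCI vehicle muscle, against 139, 150, 150 and 128 CPM in sham muscle. All SCI vehicle libraries lay below all sham libraries (-1.15 ± 0.26, adjusted p = 4.6e-04), opposite to H19. The 28-day levels were 133, 158 and 222 CPM in SCI vehicle and 145, 114, 109 and 130 CPM in sham muscle, which overlapped (0.43 ± 0.26, adjusted p = 0.35, and 0.23 within the low Hipk2 set). The injury effect on Nctc1 at 28 days minus that at 7 days was 1.59 ± 0.37 (adjusted p = 0.002), while that on H19 was negative. SCI boldine libraries at 28 days held 183 to 268 CPM of Nctc1, all above the sham libraries (0.87 ± 0.27, adjusted p = 0.02). The call was lost with a term for the library sets (0.34, adjusted p = 0.79). Within SCI vehicle, libraries 5 and 6 of the high set held 222 and 201 CPM of Nctc1 and libraries 1 to 4 of the low set 133 to 169 CPM. Over the 32 libraries the log2 CPM of H19 and Nctc1 had a Pearson correlation of -0.84, given as a description, since the libraries share groups and scaling. Counts of Nctc1 came to between 3.4% and 163% of those of H19 in a library.

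**Figure D3:**
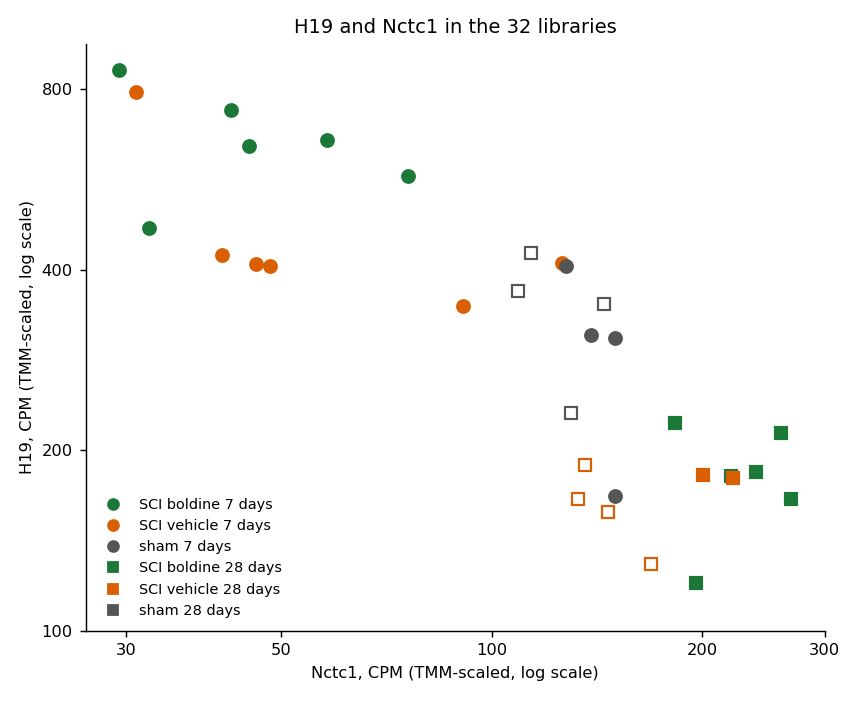
TMM-scaled CPM of Nctc1 (horizontal, log scale) and H19 (vertical, log scale) in each of the 32 libraries; circles are 7 days, squares 28 days, open symbols the low Hipk2 set. SCI boldine 7-day libraries lie at 29.3 to 75.9 CPM of Nctc1 with 470 to 862 CPM of H19, and SCI boldine 28-day libraries at 183 to 268 CPM of Nctc1 with 120 to 222 CPM of H19.

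Gm27483 and Gm27786, short entries on the opposite strand inside H19 exons, held 17.8% to 25% and 14% to 18.8% of the H19 count across libraries. The library kit does not keep the strand, and the counter's setting is not given, so reads of H19 and of these entries cannot be told apart. At 28 days their log2 fold changes in SCI vehicle over sham were -0.97 and -1.02, next to -1.04 for H19. At 7 days they were 0.50 (adjusted p = 0.075) and 0.50 (adjusted p = 0.051), neither of them called, next to the called 0.64 of H19.

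Igf2 (chromosome 7, 142650766 to 142666816), the growth factor itself, was close to the detection limit. It had 238 counts over all 32 libraries, from 1 to 17 per library. At 28 days, for example, the SCI boldine libraries held 5, 17, 8, 11, 6 and 6 counts, the SCI vehicle libraries 9, 15, 2, 15, 9 and 9, and the sham libraries 5, 14, 15 and 4. A library's limit, set at 3 counts, was 0.178 to 0.342 CPM. Summed over each group, its level at 7 days was 0.441 CPM in SCI boldine (exact Poisson interval 0.302 to 0.623), 0.488 in SCI vehicle (0.338 to 0.682) and 0.494 in sham muscle (0.309 to 0.748). At 28 days it was 0.759 in SCI boldine (0.568 to 0.993), 0.781 in SCI vehicle (0.594 to 1.01) and 0.816 in sham muscle (0.577 to 1.12). These intervals, at 95%, cover counting error only, and the 3 groups of each day overlapped. The summed levels are over library totals, while the fold changes and the limit of 3 counts are TMM-scaled. SCI vehicle over sham gave -0.40 ± 0.57 at 7 days (interval -1.56 to 0.77) and 0.03 ± 0.50 at 28 days (interval -0.99 to 1.05). SCI boldine over SCI vehicle gave intervals of -1.23 to 0.85 and -0.95 to 0.88. At this depth the counts are compatible with any change within those bounds. Gm49394 overlaps 62.8% of the Igf2 exon bases and held 33 counts, and reads of the shared bases cannot be told apart.

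Igf2r and Grb10 act on growth factor signalling. Igf2r (chromosome 17, 12682406 to 12769664, minus strand) encodes the mannose 6-phosphate receptor, which carries IGF2 to lysosomes for breakdown. Its 7-day level was 114, 140 and 165 CPM as lowest, median and highest in SCI vehicle muscle, against 92.9, 105, 101 and 100 CPM in sham muscle. The groups did not overlap and the log2 fold change was 0.49 ± 0.10 (adjusted p = 8.3e-05), staying between 0.45 and 0.9 and called in all 18 alternatives. With boldine it had 143, 146 and 165 CPM, again above every sham library (0.58 ± 0.10, adjusted p = 7.1e-06).

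By 28 days Igf2r had 68.2, 73.7 and 104 CPM as lowest, median and highest in SCI vehicle muscle, against 80.3, 75.7, 84.5 and 81.7 CPM in sham muscle. The groups overlapped (-0.00 ± 0.10, adjusted p = 0.99, interval -0.20 to 0.19). The day difference in the injury effect was -0.49 ± 0.13 (adjusted p = 0.0069). SCI vehicle libraries 1 to 4, of the low Hipk2 set, held 68.2 to 74.6 CPM of Igf2r, and libraries 5 and 6, of the high set, 93.9 and 104 CPM. The low-set SCI vehicle libraries all lay below the sham libraries, which are of the same set (-0.18 ± 0.08, adjusted p = 0.2). SCI boldine libraries held 91.3 to 101 CPM. The boldine difference of 0.25 ± 0.08 (adjusted p = 0.27) was -0.05 against the SCI vehicle libraries of the same Hipk2 set.

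Grb10 (chromosome 11, 11930508 to 12038683, minus strand) encodes an adaptor that dampens insulin and IGF receptor signalling. It had at 7 days 17.6, 21.1 and 29.8 CPM in SCI vehicle muscle, against 31.7, 37.6, 24.3 and 35.5 CPM in sham muscle. SCI boldine libraries had 19.6, 25 and 33.5 CPM. All 6 SCI vehicle libraries lay below the sham mean, though the groups overlapped (-0.54 ± 0.14, adjusted p = 0.0017). This fall was relative to the shift of other genes, and with library totals it was -0.17 (adjusted p = 0.24). SCI boldine over sham gave -0.34 ± 0.14 (adjusted p = 0.044), which turned to 0.10 (adjusted p = 0.51) with library totals and kept its call in 8 of 18 alternatives. The call was lost without any 1 of sham libraries 1, 2 and 4 or SCI boldine libraries 3, 4 and 5, at values of -0.35 to -0.26. At 28 days Grb10 had 23.5, 25.2 and 28.7 CPM in SCI vehicle and 25.5 to 30.3 CPM in sham muscle, a difference of -0.16 ± 0.14 (adjusted p = 0.53, and -0.21 within the low Hipk2 set).

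Meg3 and Rian, the noncoding RNAs of the Dlk1 cluster, were both lower after injury at 7 days. Meg3 (chromosome 12, 109541001 to 109571726) had 6.19, 10.4 and 15.4 CPM as lowest, median and highest in SCI vehicle muscle, against 27.8, 16.7, 16.8 and 14.2 CPM in sham muscle. Only the lowest sham library lay within the range of the SCI vehicle libraries, and the log2 fold change was -0.79 ± 0.18 (adjusted p = 4.3e-04). Rian (109603940 to 109661716), the host of small nucleolar RNAs, had 1.48, 4.32 and 5.38 CPM in SCI vehicle muscle, against 11.8, 9.7, 6.13 and 6.9 CPM in sham muscle. The Rian groups did not overlap (-1.10 ± 0.25, adjusted p = 5.2e-04). With library totals these were -0.42 and -0.73, and both stayed called.

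With boldine at 7 days, Meg3 had 8.5, 12.1 and 13.3 CPM and Rian 2.26, 4.58 and 6.21 CPM. Both were lower than in sham muscle (Meg3 -0.72 ± 0.17, adjusted p = 9.9e-04; Rian -0.90 ± 0.25, adjusted p = 0.0032), but with library totals they were -0.29 (adjusted p = 0.15) and -0.46 (adjusted p = 0.1). At 28 days Meg3 had 16.3, 20 and 22.3 CPM in SCI vehicle muscle, against 28.4, 19.6, 21 and 22.9 CPM in sham muscle (-0.20 ± 0.17, adjusted p = 0.52, interval -0.55 to 0.15). Rian had 5.62, 6.84 and 8.83 CPM in SCI vehicle muscle, against 10.8, 6.42, 9.37 and 7.36 CPM in sham muscle (-0.30 ± 0.24, adjusted p = 0.51, interval -0.80 to 0.20). Within the low Hipk2 set these differences were -0.17 for Meg3 and -0.42 for Rian (adjusted p = 0.69 and 0.43). In SCI boldine muscle at 28 days Meg3 was 15.3, 18.7 and 19.3 CPM and Rian 4.34, 5.89 and 7.54 CPM. The day difference in the injury effect did not pass the test for either gene (Meg3 0.59 ± 0.25, adjusted p = 0.082; Rian 0.80 ± 0.35, adjusted p = 0.096).

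**Figure D4:**
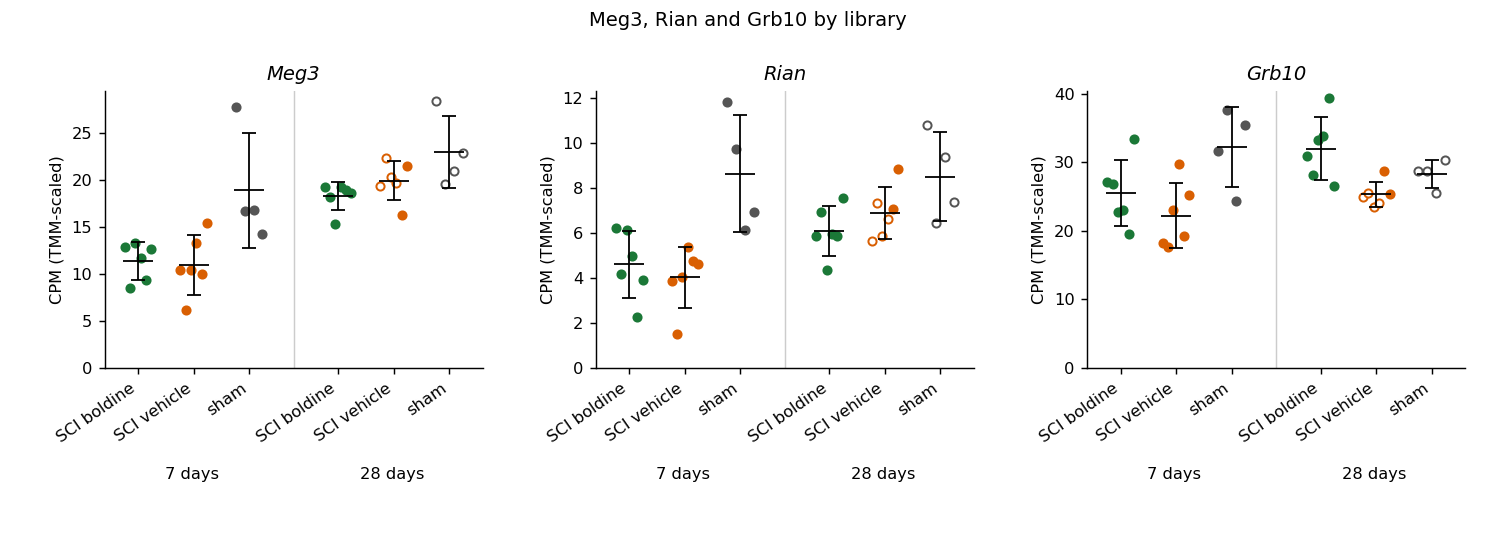
TMM-scaled CPM (vertical axes) of Meg3, Rian and Grb10 in each library, by group and day, with the mean and SD as bars; open points are the 8 libraries of the low Hipk2 set. At 7 days Rian lies at 1.48 to 5.38 CPM in SCI vehicle muscle, below the 6.13 to 11.8 CPM of sham muscle.

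Markers of several cell types were also lower at 7 days, in a comparison where 21.5% of all genes were called higher and 23.1% lower. By library totals, 7107 of all 14955 genes were called higher and 1363 lower. Of 10 markers of fibro-adipogenic progenitors, the connective tissue cells of muscle, 8 were lower in SCI vehicle than in sham muscle at 7 days and 0 higher, with 5 lower by library totals and a summed level of 414 to 733 CPM in SCI vehicle and 598 to 1122 CPM in sham muscle. Of 9 endothelial markers 7 were lower and 1 higher (3 and 1 by library totals), with sums of 183 to 236 CPM in SCI vehicle and 257 to 364 CPM in sham muscle. Every marker of both lists had counts. Their part in the Meg3 and Rian results was not tested. All 6 adipocyte markers (5 by library totals) and 8 of 9 markers of mature fibres (7 by library totals) were lower, as were 3 of 9 Schwann cell markers under either scaling, and of 8 macrophage markers only Cd68 was called, as higher. The genes most like Meg3 over the 32 libraries were the collagen genes Col6a2 (Pearson r = 0.93) and Col6a1 (0.92) and the matrix gene Tnxb (0.92). For Rian they were Col6a2 (0.87), Col6a1 (0.87) and Col5a1 (0.86), and Meg3 and Rian had an r of 0.85 with each other. The genes compared were 8988 of at least 5 CPM on average. Members and genes with a Gm or Rik symbol, or an Ensembl identifier in place of a symbol, were left out of them. All these correlations were taken on log2 CPM, share libraries and groups, and are descriptions.

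Dlk1 (chromosome 12, 109452823 to 109463336), a transmembrane protein of the Notch ligand family made from the father's copy in this cluster, had 262 counts over the 32 libraries, from 1 to 25 each. Its summed level at 7 days was 0.566 CPM in SCI boldine (exact Poisson interval 0.406 to 0.767), 0.919 in SCI vehicle (0.708 to 1.17) and 0.741 in sham muscle (0.51 to 1.04). At 28 days it was 0.716 CPM in SCI boldine (0.531 to 0.944), 0.503 in SCI vehicle (0.356 to 0.69) and 0.773 in sham muscle (0.541 to 1.07). As for Igf2, summed levels are over library totals, while the fold changes are TMM-scaled. SCI vehicle over sham gave -0.03 ± 0.58 at 7 days (interval -1.23 to 1.16) and -0.53 ± 0.61 at 28 days (interval -1.77 to 0.72). SCI boldine over SCI vehicle gave -0.77 ± 0.53 at 7 days (interval -1.86 to 0.32) and 0.51 ± 0.55 at 28 days (interval -0.62 to 1.65). At this depth the counts are compatible with changes of either sign within these intervals, and 25 of the counts came from 1 SCI boldine library at 28 days. Mirg (109729764 to 109749460), a microRNA host RNA, did not pass the filter and was not tested, with 96 counts in all, 0 to 10 per library and 0 in 3 libraries. Its summed level at 7 days was 0.221 CPM in SCI boldine (exact Poisson interval 0.126 to 0.358), 0.23 in SCI vehicle (0.131 to 0.373) and 0.404 in sham muscle (0.239 to 0.638), the sham value resting on 10 of 18 counts from 1 library. At 28 days it was 0.258 in SCI boldine, 0.185 in SCI vehicle and 0.301 in sham muscle, with overlapping intervals. A library at 0 allows up to 3 counts. For the libraries at 0 this TMM-scaled limit was 0.178 and 0.204 CPM (SCI boldine 7-day libraries 5 and 6) and 0.265 CPM (sham 28-day library 1).

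**Figure D5:**
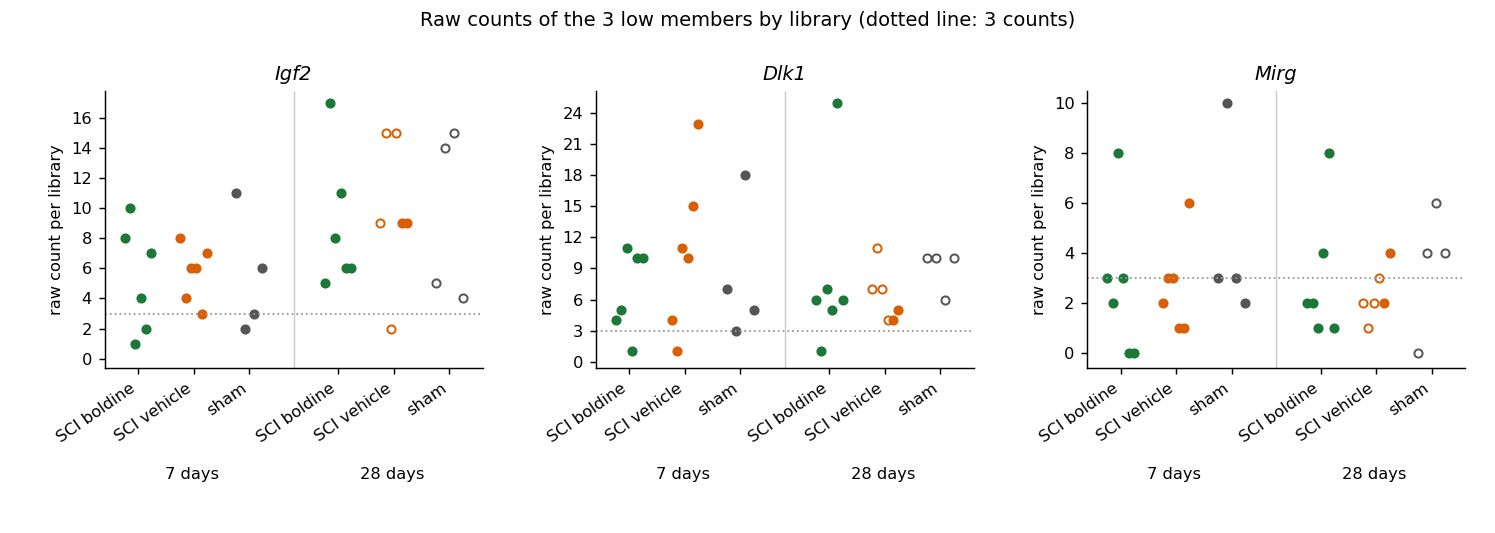
Raw counts per library (vertical axes) of Igf2, Dlk1 and Mirg by group and day, with a dotted line at the limit of 3 counts; open points are the 8 libraries of the low Hipk2 set. Counts run from 1 to 17 for Igf2, 1 to 25 for Dlk1 and 0 to 10 for Mirg, and the groups overlap in each panel.

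The rest of the Dlk1 to Dio3 interval was nearly silent in the table. Of 118 annotated genes over 828 kb, 116 were in the table, and only Dlk1, Meg3, Rian and Dio3os passed the filter. Dio3os, transcribed next to the thyroid hormone deiodinase gene, gave 0.74 ± 0.50 for SCI vehicle over sham at 7 days (adjusted p = 0.24) and 0.51 ± 0.48 at 28 days (adjusted p = 0.58). The 67 microRNA entries held 21 counts in all and the 23 small nucleolar RNA entries 0, so the small RNAs of the cluster were not measured here.

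Cdkn1c and Peg3 were the members called higher in injured muscle at 28 days. Cdkn1c (chromosome 7, 143458339 to 143461050, minus strand) encodes p57, an inhibitor of cyclin-dependent kinases that holds cells out of division and is made from the mother's copy. At 28 days it had 41.3, 48.5 and 64.6 CPM as lowest, median and highest in SCI vehicle muscle, against 26.6, 28.2, 22.4 and 26.2 CPM in sham muscle. Every SCI vehicle library lay above every sham library (0.95 ± 0.18, adjusted p = 8.0e-04), and within the low Hipk2 set the change was 1.07. The SCI vehicle libraries of the low set held 43.8 to 64.6 CPM and those of the high set 41.3 and 41.4 CPM. Its 7-day level was 16.5, 21.7 and 38.7 CPM in SCI vehicle and 28.3, 23.3, 23 and 18.5 CPM in sham muscle, with wide overlap (0.07 ± 0.18, adjusted p = 0.78, interval -0.30 to 0.45). With library totals that value was 0.43 (adjusted p = 0.024). The day difference was 0.88 ± 0.26 (adjusted p = 0.012), and 0.42 (adjusted p = 0.14) with library totals.

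SCI boldine muscle held 38, 51.2 and 56.2 CPM of Cdkn1c at 28 days, near the vehicle level (-0.01 ± 0.16, adjusted p = 1, interval -0.33 to 0.31, and 0.26 within the same Hipk2 set) and above all sham libraries (0.93 ± 0.18, adjusted p = 4.6e-04). The 7-day SCI boldine libraries held 27.7, 32.3 and 37.2 CPM, all above the vehicle mean though overlapping the vehicle libraries (0.42 ± 0.16, adjusted p = 0.35). Over sham this was 0.49 ± 0.18 (adjusted p = 0.028), and the call was lost without sham library 2, 3 or 4 (adjusted p of 0.053, 0.058 and 0.12). Gm44732, an antisense entry over 30.7% of the Cdkn1c exon bases, held 53.5% to 81.4% of its count in each library. With Gm44732 added, the 7-day value of SCI boldine over sham was 0.42 (adjusted p = 0.054). The entry Gm44732 was higher in SCI vehicle than in sham muscle at 28 days by 0.84 ± 0.18 (adjusted p = 0.0028). As the strand is not kept, its reads over the shared bases cannot be told apart from those of Cdkn1c.

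Peg3 (chromosome 7, 6703892 to 6730431, minus strand), a zinc finger protein made from the father's copy and known from muscle stem cells and growth control, was the member with the largest fold over sham at 28 days. It had 16.2, 25.9 and 36.8 CPM as lowest, median and highest in SCI vehicle muscle, against 13, 10.4, 9.37 and 9.27 CPM in sham muscle. The groups did not overlap (1.38 ± 0.26, adjusted p = 7.2e-04). Within the low Hipk2 set the change was 1.13 (adjusted p = 0.0093), where the 4 SCI vehicle libraries held 16.2 to 26.1 CPM. Levels at 7 days were 18, 25.7 and 46.6 CPM in SCI vehicle and 28.6, 18, 10.2 and 13.2 CPM in sham muscle, which overlapped. That change, 0.67 ± 0.25 (adjusted p = 0.029), lost its call without sham library 3 or 4 (adjusted p of 0.15 and 0.11), without SCI vehicle library 2 (adjusted p = 0.11) or with only the groups compared (adjusted p = 0.088).

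Peg3 was also the member nearest to a difference between boldine and vehicle. At 7 days it had 43, 46.1 and 67.1 CPM in SCI boldine muscle, against 18, 25.7 and 46.6 CPM in SCI vehicle muscle. Only SCI vehicle library 2, at 46.6 CPM, reached into the boldine range. The log2 fold change was 0.84 ± 0.21 (edgeR's adjusted p = 0.083). It passed with DESeq2 (adjusted p = 0.026), without the count filter (adjusted p = 0.032) and without SCI vehicle library 2 (1.06, adjusted p = 0.012). It passed in no other alternative. Over all genes, DESeq2 called 96 in this comparison and edgeR 5. Over sham it was 1.51 ± 0.25 (adjusted p = 8.5e-06), with no overlap.

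At 28 days Peg3 had 26, 41.2 and 50.9 CPM in SCI boldine muscle, with 5 of 6 libraries above the vehicle mean (0.54 ± 0.21, adjusted p = 0.37). SCI vehicle libraries 5 and 6, of the same Hipk2 set, had 36.8 and 35.2 CPM, and against them the boldine difference was 0.14. Over sham it was 1.92 ± 0.26 (adjusted p = 4.5e-06), and 1.27 (adjusted p = 0.097) with a term for the library sets. Markers of satellite cells, the muscle stem cells, were summed by library. At 7 days the sums were 124 to 179 CPM in SCI boldine, 116 to 166 CPM in SCI vehicle and 68.2 to 84.1 CPM in sham muscle. In SCI vehicle over sham, 4 of the 9 tested were higher and 2 lower, against 21.5% and 23.1% of all genes. At 28 days the sums were 79.1 to 103 CPM in SCI vehicle and 78.8 to 87.4 CPM in sham muscle, with 2 markers higher (Myod1 and Chodl) and 0 lower. Of 7 tested markers of developing or regenerating fibres, 3 were higher at 7 days (Ncam1, Mymx and Myog) and 2 lower (Actc1 and Mybph). Their sums were then 65.2 to 109 CPM in SCI vehicle and 156 to 562 CPM in sham muscle. At 28 days 3 were higher (Myog, Actc1 and Mybph) and 0 lower, where 4.05% of all genes were called higher and 4.88% lower. All markers of both lists had counts, and their part in the Peg3 and Cdkn1c results was not tested. Among the genes compared, the one most like Peg3 over the 32 libraries was Fst, the myostatin antagonist follistatin (r = 0.85), followed by Mdm4 (0.84) and Slc38a9 (0.84).

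Between boldine and vehicle, 0 of 9 members passed edgeR's test at either day. At an unadjusted p below 0.05 there were 3 members at 7 days (Peg3, H19 and Cdkn1c, all higher with boldine) and 3 at 28 days (Igf2r, Grb10 and Peg3, all higher with boldine). Over all 14955 genes, 1435 at 7 days and 1431 at 28 days had an unadjusted p below 0.05. DESeq2 called 1 member at 7 days (Peg3) and 0 at 28 days, and limma voom called 0 at 7 days and 1 at 28 days (Igf2r, adjusted p = 0.024). Few genes of the whole table were called in these comparisons: 0.00669% higher and 0.0267% lower at 7 days, and 0.0134% higher and 0.00669% lower at 28 days. Grb10 at 28 days had 26.5, 32.1 and 39.4 CPM in SCI boldine and 23.5, 25.2 and 28.7 CPM in SCI vehicle muscle, with all 6 boldine libraries above the vehicle mean (0.34 ± 0.12, adjusted p = 0.33), and the difference was 0.24 within the same Hipk2 set. For Meg3 the interval of the boldine difference was -0.26 to 0.39 at 7 days and -0.45 to 0.19 at 28 days, where the value of -0.13 was -0.06 within the same Hipk2 set. For Rian the difference was 0.20 at 7 days (interval -0.27 to 0.67) and -0.18 at 28 days (interval -0.65 to 0.28), which was -0.39 within the same Hipk2 set. For the change of the boldine effect between days, 0 members were called, 0 had an unadjusted p below 0.05 and 0 were called by DESeq2 or voom. Over all 14955 genes, 1455 had such an unadjusted p, 0.00669% were called higher and 0% lower.

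Against sham, SCI boldine muscle had 4 members called higher (Igf2r, Peg3, H19 and Cdkn1c) and 3 lower (Meg3, Rian and Grb10) at 7 days, with 21.7% of all genes higher and 22.5% lower. At 28 days it had Peg3 and Cdkn1c higher and H19 lower, with 8.79% of all genes higher and 9.35% lower. These comparisons share their sham libraries with those of SCI vehicle. With a term for the library sets, of these 3 members only Cdkn1c kept its 28-day call (1.32, adjusted p = 0.013), with H19 at -1.10 (adjusted p = 0.11). Meg3 at 28 days lay lower in every SCI boldine library than in every sham library, without passing the test (-0.33 ± 0.17, adjusted p = 0.19, and -0.22 with the term for the library sets). Igf2r lay higher in every SCI boldine library than in every sham library, also without passing it (0.24 ± 0.10, adjusted p = 0.073), and was -0.23 with the term for the library sets.

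In sham muscle, 0 members were called between 28 and 7 days by edgeR, DESeq2 or voom, and 2 had an unadjusted p below 0.05 (Igf2r and Peg3). Of all genes 0.388% were called higher at 28 days and 1.5% lower, and 2132 of 14955 had an unadjusted p below 0.05. Peg3 was 9.27 to 13 CPM at 28 days and 10.2 to 28.6 CPM at 7 days (-0.72 ± 0.29, adjusted p = 0.21). Igf2r was 75.7 to 84.5 CPM at 28 days and 92.9 to 105 CPM at 7 days, without overlap (-0.31 ± 0.10, adjusted p = 0.13). Day and Hipk2 set cannot be told apart between these groups.

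A list of 45 other genes, imprinted in some mouse tissue, and Nctc1 among them as the neighbour of H19, was described beside the members. The median log2 fold change of its 32 tested genes in SCI vehicle over sham muscle at 7 days was -0.05. With library totals 15 were higher and 3 lower, while 7107 of all 14955 genes were called higher and 1363 lower. With TMM scaling 9 were higher and 9 lower, against 21.5% and 23.1% of all genes. The strongest of those higher were Osbpl5, an oxysterol-binding protein gene near Cdkn1c (39.9 ± 8.06 CPM in 6 SCI vehicle and 18.1 ± 1.16 CPM in 4 sham libraries, 1.14 ± 0.12, adjusted p = 4.9e-09), Mcts2 (0.80), H13 (0.44) and Zdbf2 (1.03). The strongest of those lower were Snrpn, a spliceosome protein gene (5.29 ± 1.22 CPM in SCI vehicle and 9.75 ± 1.72 CPM in sham libraries, -0.88 ± 0.17, adjusted p = 8.3e-05), Nctc1, Nnat (-2.19) and Asb4 (-0.73). At 28 days 1 was higher, Osbpl5 (0.53, adjusted p = 0.0051), and 1 lower, the amino acid transporter gene Slc38a4 (78.1 ± 7.82 CPM in SCI vehicle and 128 ± 30 CPM in sham muscle, -0.71, adjusted p = 0.0013). Both kept their calls within the low Hipk2 set (adjusted p = 0.015 and 0.0035), and 4.05% of all genes were called higher and 4.88% lower. With library totals 0 were higher and 2 lower, while 299 of all 14955 genes were called higher and 1257 lower. Between boldine and vehicle edgeR called 0 of the 32 at either day. At an unadjusted p below 0.05 there were 4 at 7 days and 3 at 28 days, against 1435 and 1431 of all 14955 genes. DESeq2 called 1 of the 32 at 7 days and 0 at 28 days, and voom called 0 at both.

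Of 19 listed genes of the insulin-like growth factor system other than the members, 15 were tested. In SCI vehicle against sham muscle at 7 days, 3 were higher and 6 lower, against 21.5% and 23.1% of all genes. The binding protein genes Igfbp6 (8.08 ± 1.33 CPM in SCI vehicle and 19.9 ± 4.98 CPM in sham muscle, -1.30, adjusted p = 2.2e-06), Igfbp3 (-0.82) and Igfbp7 (-0.56) and the insulin receptor gene Insr (-0.36) were lower. Igf1, the other growth factor of the system and named for that after its values were seen, was also lower (9.26 ± 2.37 CPM in SCI vehicle and 15.4 ± 7.32 CPM in sham muscle, -0.73 ± 0.24, adjusted p = 0.014). M6pr, the smaller mannose 6-phosphate receptor, was higher along with Igf2r (33.2 ± 4.12 CPM in SCI vehicle and 27.6 ± 1.64 CPM in sham muscle, 0.27 ± 0.09, adjusted p = 0.012). Pappa2, a protease of binding proteins, was higher at a low level (0.569 ± 0.479 CPM in SCI vehicle and 0.126 ± 0.0585 CPM in sham muscle, adjusted p = 0.03). Its sham mean lay under the limit of 3 counts, 0.178 to 0.342 CPM. With library totals 4 of the list were higher and 2 lower at 7 days, while 7107 of all 14955 genes were called higher and 1363 lower. Igfbp2 was higher at both days, at 0.532 ± 0.136 CPM in SCI vehicle and 0.0484 ± 0.0564 CPM in sham muscle at 7 days, and 0.961 ± 0.382 CPM in SCI vehicle and 0.0252 ± 0.0504 CPM in sham muscle at 28 days (adjusted p = 5.5e-04 and 4.9e-05). Its sham libraries were under the limit of 3 counts, so no fold is given. Igfbp7 was the 1 gene lower at 28 days (46 ± 3.82 CPM in SCI vehicle and 62.7 ± 1.65 CPM in sham muscle, -0.45, adjusted p = 0.041), and its call was lost within the low Hipk2 set (adjusted p = 0.12).

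For the other members, likeness was again ranked among the 8988 genes compared. Gm27483 and Gm27786, inside H19 exons, and Gm44732, over Cdkn1c exons, were left out of these by their symbols. Of the genes compared, those most like H19 over the 32 libraries were Prdx6, Zbtb17 and Acad12 (r = 0.90 each). Those most like Igf2r were the dynein gene Dync1h1 (0.97), the kinase gene Dapk2 (0.96) and the kinesin gene Kif5b (0.95). Cdkn1c was most like Lrtm1 (0.82), BC023105 (0.81) and Fam102b (0.81), and Grb10 most like Atf7 (0.78), Foxn3 (0.77) and Fgfr1 (0.76). For Igf2 and Dlk1, with few counts, the highest were Abra (0.78) and Scarb1 (0.65).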

How the data were processed

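Raw counts per gene were deposited by the authors as one table of 32 libraries. Per the submitters' processing notes, FastQC, Trim Galore, cutadapt, STAR and the mm10 build were used; for the versions, the counter, its strand setting and the annotation, nothing is given in the sources used here. Per the labels' protocols, RNA came from equal parts of both heads of the muscle and libraries from a NEBNext Ultra kit, which does not keep the strand. Symbols were taken from GENCODE M21, which matched 55141 of 55487 identifiers, and the unmatched ones held 0.0256% of counts. No libraries were identical.

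Counts were tested in R 4.3.3 with edgeR 4.0.16 (quasi-likelihood test, TMM scaling, all 6 groups in one fit). A prior count of 2 entered only the log2 CPM used for correlations. Genes passed with 10 counts in enough libraries and 15 in all, which left 14955. Adjusted p-values (Benjamini-Hochberg, threshold 0.05) run over all of these. Standard errors are the fold change over the root of the F statistic and, like the 95% intervals, are approximate. DESeq2 1.42.0 and limma 3.58.1 (voom with quality weights), library totals, no filter, a replicate block, only the groups compared, a term for the library sets (parted at 30 CPM of Hipk2) and leaving out each library were alternatives. Adding overlapping genes to a member, and the library-set values of genes that are no members, were chosen after seeing the data. The fit was tested on simulated data. CPM are TMM-scaled except summed levels, which are over library totals. The limit of detection was 3 counts.

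Members, lists and tests were chosen with earlier results of these data known. All members were described. Genes of the other imprinted and IGF lists were named by smallest p past the threshold, at most 4 in each direction. Like genes were named by the 3 highest correlations, with members and genes of Gm, Rik or no symbol left out. RefSeq (GRCm38.p6) gave miRNA sequences and promoter windows for 8 of 10 members.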

Additional observations from a re-analysis of the deposited data

Results flagged for a closer look

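In 5 groups a single library was flagged as an outlier by a rule, though not all of them stood far from the others. H19 was 791 CPM in SCI vehicle 7-day library 2, against 348 to 423 CPM in the other 5 libraries of its group. Meg3 was 15.3 CPM in SCI boldine 28-day library 3, not far below the 18.2 to 19.3 CPM of the other libraries of its group. Mirg was 1.14 CPM in sham 7-day library 2, from 10 counts. Dlk1 was 2.56 CPM in SCI boldine 28-day library 5, from 25 counts. Peg3 was 67.1 CPM in SCI boldine 7-day library 3, the highest of a group with a median of 46.1 CPM. Of 60 groups examined (10 members in each of 6 groups), 5 had such a library. The 1 in 20 taken as the share of flags by chance is nominal and was not worked out for groups of 4 or 6 libraries.

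The effect of injury differed between the days, by a test of the difference itself, for 3 members. In that test 11.6% of all genes were called higher and 12.3% lower. The 28-day effect minus the 7-day effect on the log2 scale was -1.68 for H19, 0.88 for Cdkn1c and -0.49 for Igf2r, among 18 differences between days that were tested. With library totals, which moved the median of all genes in this comparison to -0.46, these were -2.18 for H19, 0.42 for Cdkn1c (adjusted p = 0.14) and -0.99 for Igf2r, and those of H19 and Igf2r stayed called.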

How the results depend on the processing

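Of 22 called member values, the call held in 236 of 250 fits that left out a library and was lost in 14. It held in 166 of 179 other alternatives, was lost in 12, and 1 reversed: Grb10 in SCI boldine over sham at 7 days, at 0.10 with library totals. Members called between SCI boldine and SCI vehicle at 7 days, 0 as reported, came to 1 without the count filter, 1 with DESeq2 and 0 to 2 with a library left out, the 2 without SCI vehicle library 2. At 28 days they came to 1 with voom and 0 to 1 with a library left out, the 1 without SCI vehicle library 6. For SCI boldine against sham at 7 days, 4 members instead of 7 were called with library totals, all 4 of them higher. All-gene calls went from 6614 to 8979 of 14955 with library totals, with 7785 higher and 1194 lower. With a library left out, 5 to 7 members were called. At 28 days 1 was called with the term for the library sets and 5 with only the groups compared, instead of 3. In sham muscle between days, 1 was called with only the groups compared. With a library left out, SCI vehicle against sham gave 4 to 6 members at 7 days and 3 at 28 days.

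Replicate numbers did not pair the libraries: of 72 pairs with the same number, 3 had a correlation over 0.1 (range -0.213 to 0.264). With the replicate block, Meg3 was called in the day difference of the injury effect (0.60, adjusted p = 0.048). All-gene counts between SCI boldine and SCI vehicle were 5 at 7 days and 3 at 28 days. At 7 days they became 96 with DESeq2, 24 without the filter, 19 with the set term, 2 with library totals and 0 with only the groups compared. At 28 days they became 39 with DESeq2, 334 with voom, 1 without the filter, and 0 with the set term, the replicate block, only the groups compared or vehicle libraries of the same set. The change of the boldine effect between days (1 gene) gave 37 with DESeq2, 2 with voom and 0 with library totals, the replicate block or the set term. SCI boldine over sham at 28 days fell to 219 of 2713 genes with the set term. The day difference of the injury effect grew to 6826 (533 higher, 6293 lower), against 3580, with library totals. Sham between days (283 genes) gave 470 with DESeq2, 441 with voom, 135 with library totals and 0 with the set term. The cause of these differences was not tested. Depth limits Igf2, Dlk1 and Mirg, at 96 to 262 counts each.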
